A study of Mus musculus with 2 samples.

Results

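The regions described here are the intergenic ISL1 peaks that lay more than 30 kb and at most 150 kb from the nearest transcription start site (TSS) in sinoatrial node cells of newborn mice. They were chosen by the authors' annotation and distance alone, without use of their scores. Of the 1483 peaks in the list, 317 met the rule (21.4%), which is 39.7% of the 798 intergenic peaks. The study profiled ISL1 binding by chromatin immunoprecipitation and sequencing (ChIP-seq). It used 1 ISL1 library, and its 1 input DNA library was not analysed here. Both came from Hcn4-H2BGFP mice on an ICR background at postnatal day 1 to 3. The sinoatrial node was digested and cells were sorted for the green fluorescent histone, which is driven from the pacemaker channel gene Hcn4. The sort therefore takes any cell of the dissected tissue in which that reporter is on. Markers of the cell type could not be checked in a list of binding sites.

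ISL1 is a LIM-homeodomain transcription factor, a protein that binds DNA through its homeodomain and partner proteins through its LIM domains. In the heart it marks early progenitor cells and later remains on in the sinoatrial node, where the heartbeat starts. Much of the DNA that directs when and where a gene is used lies far from its start, in enhancers that can lie in the space between genes. An enhancer need not act on the gene whose start is nearest, so each gene named below gives a place in the genome and not a target.

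Each peak was 144 bp wide and carries 1 score given by the authors, which ranks peaks within this list. With 1 library there was no replicate, no test between groups was possible, and no interval below covers variation between animals. The intervals are exact 95% intervals of counting error over peaks, which takes neighbouring peaks as independent. The 317 peaks scored between 8.21 and 52, with a median of 15.1 (interval of the median 13.7 to 15.1) and quartiles at 12.3 and 17.8. Intergenic peaks beyond 150 kb had the same median and interval, and so had intronic peaks beyond 30 kb. Intergenic peaks within 30 kb had a median of 13.7 (13.7 to 15.1, n = 122). Scores rise in equal steps of 1.37, so these medians differ by 1 step at most. If a step is 1 sequenced tag, the median peak rests on 11 tags (exact Poisson interval 5.49 to 19.7) and the highest on 38 (26.9 to 52.2). A score of 10.9, at 8 tags, would have an interval of 4.73 to 21.6 on the score scale, so single weak peaks cannot be ranked against the median. Among all 1483 peaks, 10.9% reached the 90th percentile of score (23.3), and 36 of the 317 did (11.4%, Clopper-Pearson 8.08 to 15.4).

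The highest peak lay at chromosome 8 27788282 to 27788426 (mm9), 147 kb downstream of the noncoding RNA gene 2310008N11Rik, and scored 52. Next came a peak of 41 at chromosome 2 115210789 to 115210933, 40.8 kb upstream of the noncoding 4930528P14Rik. Golim4, which encodes a Golgi membrane protein, had a peak of 39.7 at 149 kb (chromosome 3 75612021 to 75612165). A peak of 38.3 lay 55.4 kb from the start of Sh3glb1, an endophilin gene, and another of 38.3 lay 42.0 kb upstream of the microRNA gene Mirlet7j. All 3 of the chromosome 3 peaks just named were above the upper quartile by more than 20 score units.

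The other high peaks lay nearest to genes of several kinds, some of them genes of transcription factors or regulators. Mitf, a basic helix-loop-helix leucine zipper factor best known from pigment cells, had peaks of 36.9 and 16.4 at 123 and 126 kb downstream of its TSS (chromosome 6 98064303 to 98067608). Six2, a homeobox gene known from kidney progenitors, had a peak of 34.2 at 135 kb upstream (chromosome 17 86222654 to 86222798). Mdfic, which encodes a protein with a MyoD family inhibitor domain, had 32.8 upstream and 21.9 downstream, 268 kb apart. Peaks of 30.1 lay nearest Comtd1, Dreh, Fbxo8 and Slc5a7, the last being the gene of the choline transporter of cholinergic nerve endings. The Slc5a7 peak at 140 kb (chromosome 17 54298143 to 54298287) had a second one of 13.7 at a distance of 135 kb.

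**Figure D1:**
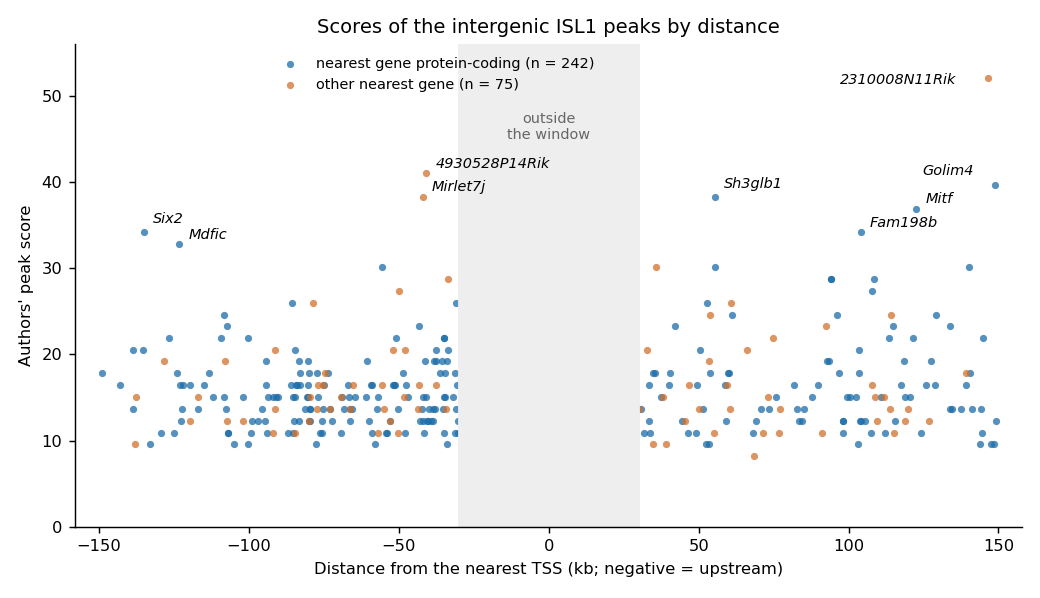
Score of each of the 317 peaks (y axis) against its signed distance from the nearest TSS in kb (x axis, negative upstream), coloured by whether the nearest gene is protein-coding. The labelled peaks are those with a score of 32 or more in the plot, and they lie at distances from 40.8 to 149 kb on both sides.

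Of the nearest genes 4 encode microRNAs, and their mature sequences, from RefSeq (GRCm38.p6), are given because one of them, Mirlet7j, stood at the top of the score range. Capitals mark the seed, bases 2 to 8, through which a microRNA pairs with its targets.
mmu-let-7j: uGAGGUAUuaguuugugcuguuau
mmu-miR-8099: cCAAGGCGugggaaagguugu
mmu-miR-8120: uGUGCCUUgcaacuuccgagcc
mmu-miR-6900-5p: uGCCAGGAgaagccuagagccguc
mmu-miR-6900-3p: uGGUGAUGggcucucuuguag
The 5 mature forms had 5 different seeds, so no seed family was represented more than 1 time. The peak of Mirlet7j, which is named for the let-7 family, scored 38.3 (chromosome 3 139649138 to 139649282). Mir8099-1 had a peak of 17.8 at 139 kb, Mir8120 one of 16.4 at 55.7 kb and Mir6900 one of 12.3 at 127 kb, on a DNA repeat. The last 3 lay between the lower quartile and the upper quartile of the set, bounds included.

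The peaks lay more often upstream than downstream of the nearest TSS. Of the 317, 187 were upstream (59.0%, Clopper-Pearson 53.4 to 64.5) against 41.2% of all 1483 peaks. The share was 70.5% (61.6 to 78.4) in intergenic peaks within 30 kb and 42.3% (37.2 to 47.6) in those beyond 150 kb. The interval of the 317 does not overlap that of the more distant intergenic peaks. Within the window the share was 64.9% (55.4 to 73.6, n = 114) at 30 to 60 kb and 72.5% (61.4 to 81.9, n = 80) at 60 to 90 kb. It was 46.8% (35.3 to 58.5, n = 77) at 90 to 120 kb and 41.3% (27.0 to 56.8, n = 46) at 120 to 150 kb. The upstream peaks had a median distance of 74.9 kb and the downstream peaks one of 93.1 kb, while both had a median score of 15.1.

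A peak inside a gene is not annotated as intergenic, so a downstream peak enters the set only past the end of the gene whose start is nearest. Intronic peaks at the same distances were upstream in 58 of 299 cases (19.4%, 15.1 to 24.3). All 624 peaks at 30 to 150 kb, whatever their annotation, were upstream in 39.7% (35.9 to 43.7), which is close to the 41.2% of the whole list. Restricting all intergenic peaks to protein-coding nearest genes gave 77.8% within 30 kb, 61.2% at 30 to 150 kb and 46.7% beyond. The order of the 3 distance classes was thus the same.

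**Figure D2:**
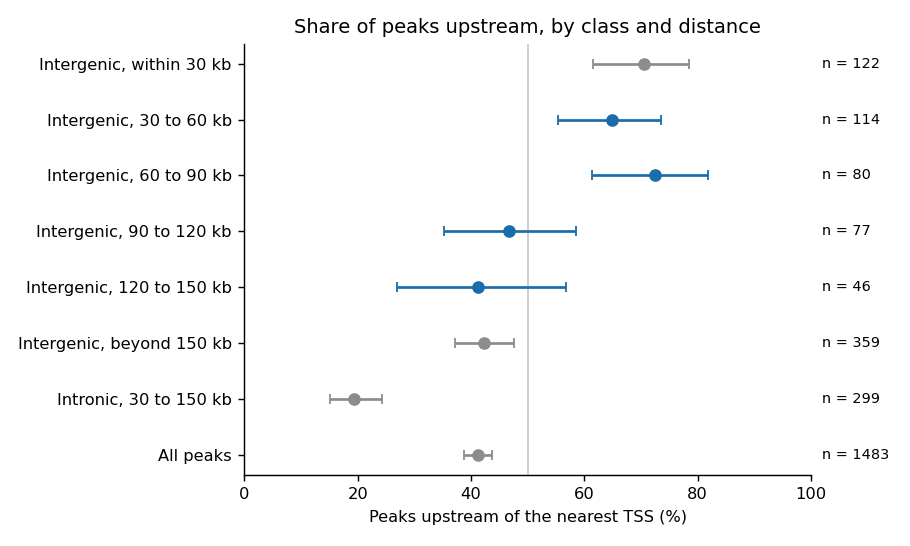
Share of peaks upstream of the nearest TSS in percent (x axis) for intergenic peaks by distance, intronic peaks at 30 to 150 kb and all peaks. Bars are exact 95% Clopper-Pearson intervals, blue points are the 4 distance bins of the 317 peaks, and the grey line is an even split. The first 2 bins lie at 64.9% and 72.5% and the last 2 at 46.8% and 41.3%.

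The 317 peaks were nearest to 269 genes. Of these, 228 had 1 such peak, 34 had 2 and 7 had 3, so the 41 genes with more than 1 held 89 peaks. For 185 genes these were their only peaks. The other 84 also had a peak of another class: 29 had one within 30 kb, 21 in an intron beyond 30 kb and 47 in intergenic space beyond 150 kb. The nearest gene was protein-coding for 242 peaks (76.3%, 71.3 to 80.9) against 78.6% of all peaks. For 72 it was a noncoding RNA, for 2 a pseudogene and for 1 a small nucleolar RNA.

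Vegfc, the gene of a growth factor for lymphatic vessels, had 3 peaks of 12.3, 13.7 and 10.9 within 4.71 kb, at 75.5 to 80.1 kb upstream (chromosome 8 55082719 to 55087426). All 3 were below the median score. Fam198b, which encodes a Golgi protein, had 3 within 5.21 kb at 103 to 108 kb, with scores of 17.8, 34.2 and 28.7 (chromosome 3 79793193 to 79798403). That group was at or above the upper quartile throughout. On the same assumption, the interval of its score of 17.8 (9.47 to 30.4) overlaps that of the Vegfc score of 13.7 (6.56 to 25.2). Robo2, a receptor for the guidance cue SLIT, had 3 upstream peaks of 16.4, 13.7 and 15.1 at 47.5, 68.2 and 93.7 kb. A further 3 peaks of Robo2 lay farther upstream, the highest of 26.0 at 241 kb.

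Tfec, a basic helix-loop-helix leucine zipper factor related to Mitf, had 3 peaks of 12.3 to 15.1 at 101 to 134 kb. In all 9 peaks were nearest to Tfec, with 1 within 30 kb and 5 beyond 150 kb. The noncoding 4930528P14Rik had peaks of 41, 20.5 and 27.4 within 9.15 kb, and another peak, of 13.7, lay closer to the TSS at 23.4 kb. At 2310008N11Rik the scores of 52, 10.9 and 24.6 were spread over 93.0 kb. Fbxo8, the gene of an F-box protein of the ubiquitin system, had 30.1, 10.9 and 17.8 at 55.6, 68.2 and 96.8 kb downstream (chromosome 8 59085467 to 59126844).

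**Figure D3:**
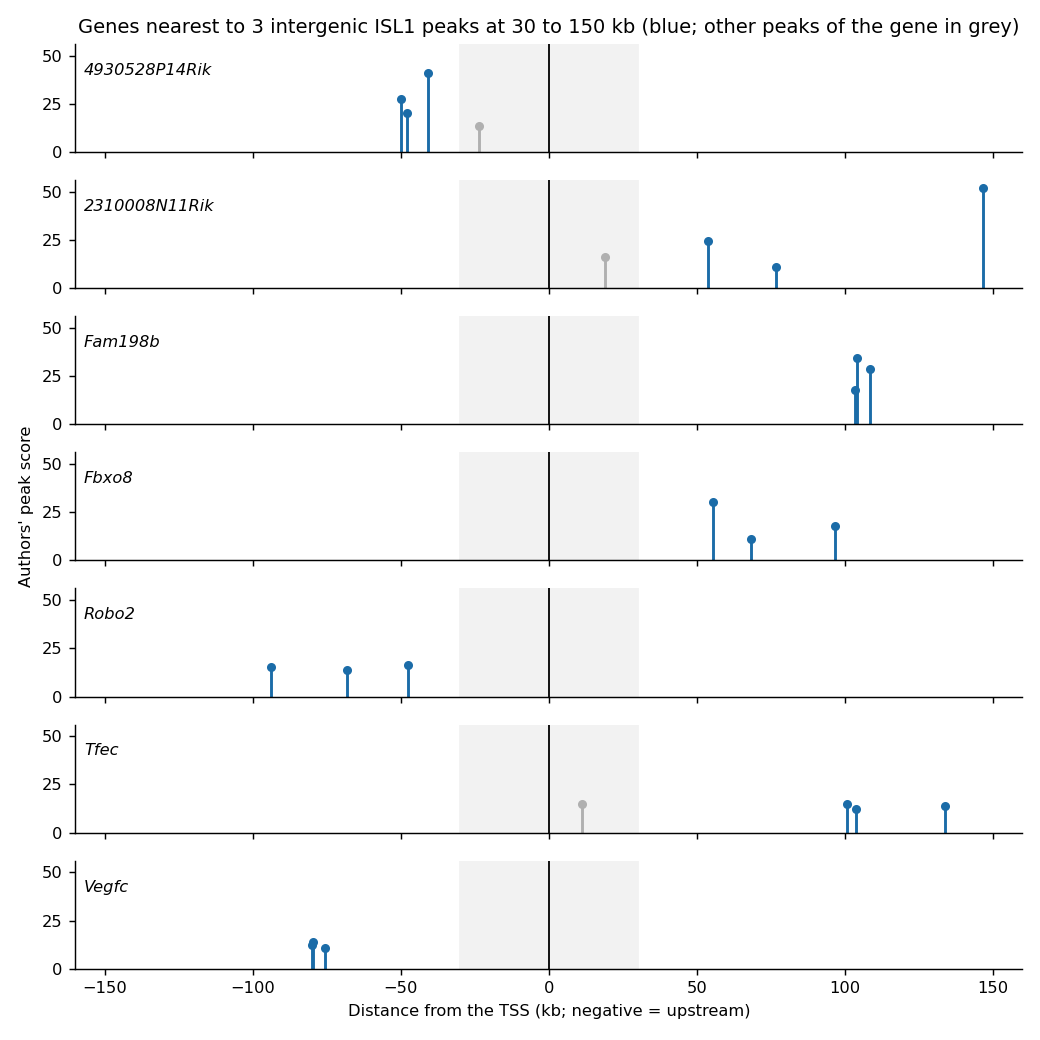
Peaks of the 7 genes nearest to 3 of the intergenic peaks at 30 to 150 kb, with the signed distance from the TSS in kb (x axis) and the peak score (y axis). Blue stems are the 30 to 150 kb peaks, grey stems are other peaks of the gene within the plotted range, and the grey band is the excluded 30 kb on each side. In each of the 7 genes the 3 blue stems stand on 1 side of the TSS.

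Of the genes with 2 peaks, 5 had 1 on each side of the TSS. Besides Mdfic these were Atl2, an atlastin gene of the endoplasmic reticulum (17.8 and 12.3), Aldoart1 (12.3 and 10.9), the erythroid noncoding RNA gene Redrum (12.3 and 10.9) and 1810011O10Rik (10.9 and 9.58). Among the other pairs, Il7, a cytokine gene of lymphocyte growth, had 26.0 and 15.1 within 1.17 kb at 84.8 and 85.8 kb upstream. Ube2e3, a ubiquitin-conjugating enzyme gene, had 24.6 and 12.3 within 1.95 kb. Twistnb had 28.7 and 10.9, Haao 23.3 and 15.1, Sucnr1, the gene of the succinate receptor, 23.3 and 15.1, and Triqk 26.0 and 10.9. The pairs of Mterf1b (23.3 and 15.1) and 4930545H06Rik (28.7 and 16.4) also had 1 peak at or above the 90th percentile. In each of these 8 pairs the lower peak was below the 90th percentile, and the counting intervals of the paired scores overlapped.

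Peaks of the set had another peak of the list close by about as often as the list as a whole. Another peak lay within 10 kb of 39 (12.3%, 8.90 to 16.4) against 13.4% of all peaks, and within 50 kb of 86 (27.1%, 22.3 to 32.4) against 29.1%. In 6 pairs the centres were at most 1 kb apart, and both peaks of each pair belonged to the set. The closest was the pair at Vegfc, 344 bp apart, followed by Gm11487 (370 bp, 16.4 and 16.4) and Gm10677 (382 bp). The remaining pairs were at 4930423M02Rik (435 bp), Gm19303 (560 bp) and Fam198b (657 bp). The DNA had been sheared to 100 to 400 bp, so the 3 closest pairs lay within the length of a fragment, and whether they share fragments was not tested. Groups of at least 3 peaks with gaps of up to 50 kb numbered 9 where they held a peak of the set. Of these, 6 were the groups of Vegfc, Fam198b, Robo2, Tfec, 4930528P14Rik and Fbxo8 described above, and the others were at Slc5a7, 2310008N11Rik and Eif3h, a gene of translation initiation.

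When only the peaks of the set were chained over gaps of up to 250 kb, a limit chosen after seeing the data, 2 groups of 4 were found. Peaks of other classes, such as the further peaks of Tfec and Robo2, were left out of this chaining. The first, 183 kb long, held the 3 Fbxo8 peaks and 1 of 13.7 nearest Cep44, a centrosomal protein gene. The second lay at chromosome 10 111109997 to 111374140 and held scores of 26.0, 15.1, 16.4 and 19.2, nearest 4933440J02Rik, Gm20758 (2 peaks) and Krr1, a gene of ribosome assembly.

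Transcription factor genes of the heart and its conduction system were among the nearest genes. The list of 29 genes also holds Smoc2 and Vsnl1, which do not encode transcription factors. Of the 29, 6 were nearest to a peak of the set and 10 to a peak of any class. These 6 genes had 1 peak each, with a median score of 17.1 against 15.1 for all 317. That median rests on 6 peaks and has no interval, so a difference in score was not tested. For peaks of the set, the background is 0.984% of 21027 protein-coding genes in the RefSeq table. The lists were put together with earlier results of these data known, and neither gene spacing nor gene length was corrected for, so counts over lists are descriptions. Irx4, a ventricular Iroquois factor, had a peak of 21.9 at 109 kb upstream (chromosome 13 73288610 to 73288754). Irx1 had one of 21.9 at 114 kb downstream (chromosome 13 71987490 to 71987634) and Irx3, which regulates fast conduction in the His-Purkinje system, one of 16.4 at 143 kb upstream. The 3 Iroquois peaks were all more than 100 kb from the start of their gene and above the median score. If a step is 1 tag, the counting intervals of these scores include that median.

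Nr2f2, which encodes the atrial identity factor COUP-TFII, had a peak of 17.8 at 149 kb upstream (chromosome 7 77660462 to 77660606). Tbx18, a T-box gene needed for the sinus node head, had one of 16.4 at 81.9 kb (chromosome 9 87544074 to 87544218). Tbx5, a T-box activator of conduction genes, had one of 16.4 at 129 kb, which lay on an L3 repeat. From the list of LIM complex, homeodomain partner and corepressor genes, 2 of 30 were nearest to a peak of the set and 9 to a peak of any class. Over all genes these counts were 269 and 1003. Tle3, a Groucho-type corepressor gene, had 21.9 at 34.9 kb upstream and Meis1, a TALE homeobox gene, had 10.9 at 145 kb.

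Families of transcription factors were found by stems of gene names. These stems miss some factors, Mitf and Tfec among them, and take in corepressor genes such as Tle3 and Runx1t1. By these stems, 61 genes were nearest to any peak of the list and 18 of them to a peak of the set. Over all genes these counts were 1003 and 269. Besides those named, Tcf21, known from epicardium and fibroblasts, had 17.8 at 48.7 kb upstream, and Twist2, known from mesenchyme, had 15.1 and 13.7 at 41.0 and 31.1 kb upstream. The forkhead genes Foxn3 (17.8) and Foxa1 (16.4) had 1 each, and so had the homeobox genes Barx1 (12.3) and Alx1 (9.58 at 144 kb, on a SINE repeat). Runx1t1, a corepressor gene, had 13.7 and Zbtb18, a zinc finger repressor gene, 12.3. Zfp36l1 (13.7) was caught by its name, but its zinc fingers bind RNA. Only 1 Sox gene, Sox11, was nearest to any peak of the list, and neither of its 2 peaks was in the set.

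Signalling genes were taken by role. Of 42 ligand genes, 2 were nearest to a peak of the set: Vegfc, described above, and Jag1, a Notch ligand gene, with 16.4 at 58.8 kb upstream (chromosome 2 137001028 to 137001172). Of 34 receptor genes only Fzd1 was, a WNT receptor, with 24.6 at 96.1 kb downstream (chromosome 5 4662082 to 4662226). Of 32 inhibitor and modulator genes there were 4. Hhip, which encodes a membrane antagonist of Hedgehog ligands, had 27.4 at 108 kb downstream (chromosome 8 82474167 to 82474311). The other 3 act on the WNT pathway, namely Dkk2 (15.1 at 108 kb upstream), Sfrp2 (15.1 at 77.0 kb upstream) and Dact1 (12.3 and 12.3 at 83.4 and 84.6 kb downstream). Only Fzd1 and Hhip of these 7 genes had a peak at or above the 90th percentile. Peaks of any class were nearest to 11 ligand, 4 receptor and 5 inhibitor and modulator genes. Over all genes, 269 of the 1003 nearest to any peak were nearest to one of the set. The background for the set is 0.984% of protein-coding genes.

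Of the 39 channel and calcium genes on the pacemaker list, 3 were nearest to a peak of the set and 8 to a peak of any class. Itpr2, a calcium release channel gene, had 21.9 at 35.0 kb upstream. Ank2, whose product anchors channels and exchangers in the membrane, had 13.7 at 73.6 kb downstream (chromosome 3 126572673 to 126572817). Kcnj2, an inward rectifier potassium channel gene, had 12.3 at 149 kb downstream. Of 33 autonomic and cyclic AMP genes, Popdc3, a Popeye gene, had 16.4 at 59.3 kb and Pde3a, a phosphodiesterase gene, 15.1 at 80.8 kb, both upstream. The Pde3a peak lay on a long terminal repeat. A peak of any class was nearest to 5 of these 33 genes. No gene of the 30 on the sarcomere list was nearest to a peak of the set, a count close to the background of 0.984%. A peak of any class was nearest to 4 of them. Over all genes, 269 of the 1003 nearest to any peak were nearest to one of the set.

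From the axon guidance list 3 of 37 genes were nearest to a peak of the set. A peak of any class was nearest to 17 of them, and over all genes the counts were 269 of 1003. Besides Robo2 these were Unc5c, a netrin receptor gene (15.1 at 69.0 kb upstream), and Sema6d, a semaphorin gene (10.9 at 59.0 kb upstream). All 5 peaks of these genes lay upstream. Of 56 adhesion and matrix genes, 14 were nearest to a peak of any class, and 5 had 1 peak of the set each. They were the protocadherin gene Pcdh18 (23.3 at 115 kb downstream), Ncam2 (19.2 at 60.7 kb), the integrin gene Itgb8 (16.4 at 80.4 kb), the collagen gene Col1a2 (16.4 at 120 kb) and Has2, which makes hyaluronan (15.1 at 80.2 kb). The last 4 were upstream.

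Over the 10 lists together, 28 of 362 genes (7.73%) were nearest to a peak of the set, and these genes held 33 of its peaks. Counting only genes that were nearest to some peak of the list, this was 28 of 87, against 269 of 1003 over all genes.

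**Figure D4:**
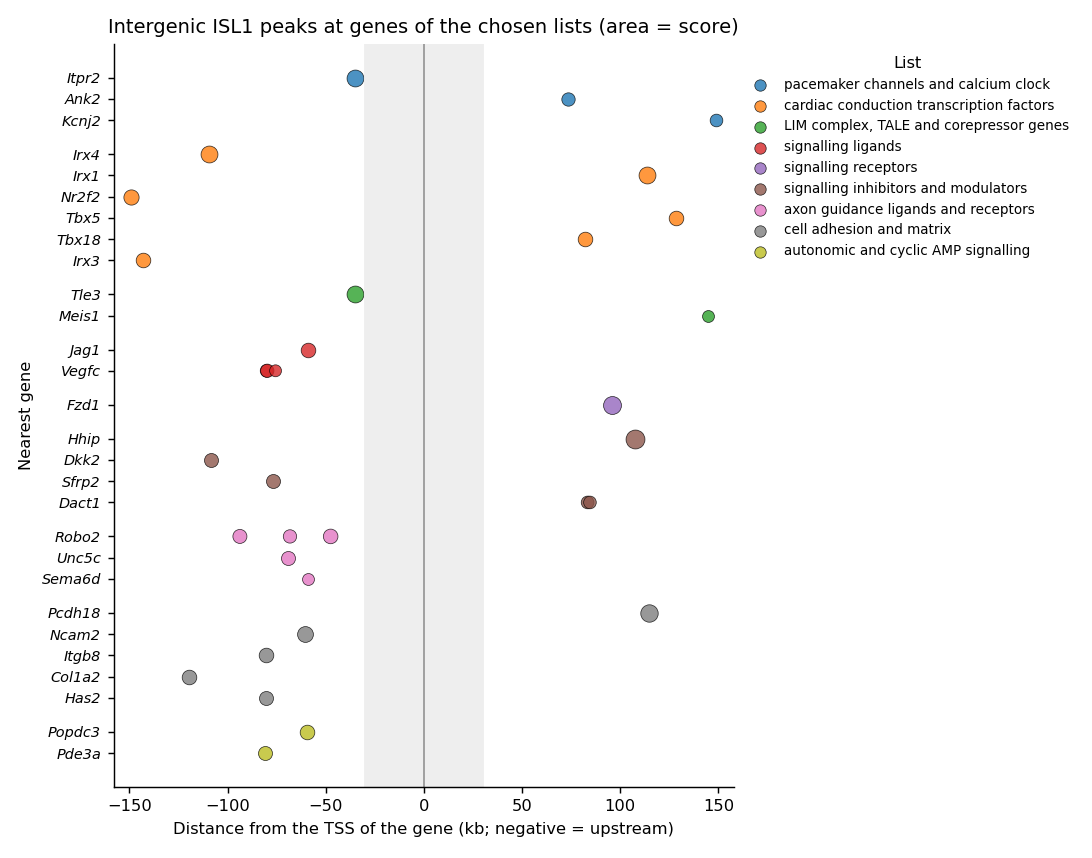
Peaks at the 28 list genes that were nearest to an intergenic peak at 30 to 150 kb, with the signed distance from the TSS in kb (x axis) and 1 row per gene (y axis), coloured by list. The area of a point is proportional to the score, from 10.9 at Meis1, Sema6d and Vegfc to 27.4 at Hhip.

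Markers of other cells were counted against the same background of 0.984% of protein-coding genes. Of 15 fibroblast and epicardial markers 3 were nearest to a peak of the set, Tcf21, Col1a2 and Tbx18, the last of which also counts above. Of 15 endothelial markers Emcn had 1 peak of 10.9, and of 16 working myocardium markers Kcnj2, also counted above, had 1. None of 15 autonomic neuron and glia, 14 blood and immune or 11 hepatocyte markers was nearest to one. A peak of any class was nearest to 4 fibroblast and epicardial, 2 endothelial and 1 working myocardium markers. It was also nearest to 1 blood and immune, 1 hepatocyte and 0 autonomic neuron and glia markers. Over all genes, 269 of the 1003 nearest to any peak were nearest to one of the set. Like those of the other lists, these counts are descriptions.

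The gene on the other side of a peak was read from gene order in the RefSeq table of GRCm38.p6, with no distances taken from it. For 286 of the 317 peaks the strand of the nearest gene was known and the next protein-coding gene on the peak's side could be named. Where the nearest gene was noncoding, the protein-coding gene overlapping it or on its other side was read too. For 70 peaks the list itself gave a TSS position of the next gene in mm9, and in 70 of 70 it lay on the side that gene order gave. Some of these peaks share a next gene. Nearest and next genes together came to 455 protein-coding genes, or 2.16% of those in the table. Among the 362 list genes, 57 (15.7%) were nearest or next, and 29 of them were next only. The lists were put together with earlier results of these data known, and gene spacing was not corrected for. The 2 percentages are therefore descriptions, and a difference between them was not tested.

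Of these 29, 6 came from the conduction list, and none of these 6 was the nearest gene of any of the 1483 peaks. Hand2, a factor of heart morphogenesis, followed Fbxo8 on the side of its 3 peaks of 30.1, 10.9 and 17.8. Tbx3, the T-box repressor that keeps the node from becoming working muscle, adjoined the noncoding AW549542, whose peak scored 13.7 at 50.1 kb (chromosome 5 119980239 to 119980383). On the side of that peak the next gene was not Tbx3 but Med13l. Tbx20 was next to Herpud2 (15.1) and Prrx1 next to Gorab (16.4). The peak of Irx4 lay between Irx4 and Irx2, and that of Irx3 between Irx3 and Irx5, so each of these peaks had an Iroquois gene on both sides.

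Other next genes belonged to the calcium and signalling lists. The Ank2 peak lay between Ank2 and Camk2d, a calcium-dependent kinase gene whose TSS was 273 kb away. Cacna2d1, a calcium channel subunit gene, was next to Hgf, which had a peak of 16.4 at 82.9 kb. Itpr1, a relative of Itpr2, was next to the noncoding 0610040F04Rik with its peak of 19.2. Bmp4, a ligand gene of the bone morphogenetic protein family, was next to a pseudogene, Gm1821 (16.4). Fgf10, a ligand gene of the second heart field, adjoined 1700003P14Rik (13.7), but the next gene on the peak's side was Mrps30. Among guidance genes, Unc5d adjoined 4933433F19Rik (26.0) and Nrp2 adjoined 4930487H11Rik (16.4). For these the next genes on the peak's side were Dusp26 and Ino80d. Robo1 followed D16Ertd519e on the side of its peaks (20.5 and 12.3). The Robo1 TSS was 2014 and 1937 kb from these peaks, so being next in order does not mean being close.

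Some peaks with different nearest genes lay in 1 interval. The peaks of Sh3glb1 (38.3) and of its neighbour Sep15, a selenoprotein gene (26.0), lay between the ends of these 2 genes and downstream of both. The peak of Fzd1 and both of Mterf1b lay between Fzd1 and Mterf1b, again downstream of both. Orientation could be read for 168 peaks between protein-coding genes: 31 (18.5%) were upstream of both neighbours and 37 (22.0%) downstream of both. Another 59 (35.1%) were upstream of the nearest and downstream of the other gene, and 41 (24.4%) the reverse. Those upstream of both had a median score of 13.7 and those downstream of both one of 16.4, while both mixed orientations had 15.1. These medians have no interval, and a difference in score by orientation was not tested.

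Repeats held 40 of the 317 peaks (12.6%, 9.17 to 16.8) against 7.82% of all peaks. The share was 10.7% (5.80 to 17.5) in intergenic peaks within 30 kb, 7.80% (5.25 to 11.1) in those beyond 150 kb and 4.18% (2.49 to 6.52) in intronic peaks beyond 30 kb. The interval of the set overlaps those of the other intergenic classes and not that of the intronic peaks, but a difference between classes was not tested. By class 15 lay on long terminal repeats, 14 on LINE, 6 on SINE and 5 on DNA elements. Their median score was 13.7, against 15.1 for the 277 others. The mouse element RLTR22 held 4, at Ncam2 (19.2), Nkain2 (17.8), Elovl5 (15.1) and Sntg1 (13.7), out of 9 in the whole list. Of the 80 peaks at 60 to 90 kb 17 were on a repeat, against 11 of 114 at 30 to 60 kb. It was 6 of 77 at 90 to 120 kb and 6 of 46 at 120 to 150 kb. The 90th percentile of score was reached by 13 of 114 peaks at 30 to 60 kb, 4 of 80 at 60 to 90 kb, 11 of 77 at 90 to 120 kb and 8 of 46 at 120 to 150 kb. Whether reads from repeats placed at more than 1 position had a part in these peaks was not tested.

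The focus ratio, the authors' fraction that describes how concentrated a peak's tags are, had a median of 0.75 (quartiles 0.667 and 0.812) against 0.739 for all peaks. By chromosome the set made up between 8.33% of the peaks (2 of 24, chromosome 19) and 33.3% (4 of 12, chromosome X), with 36 of 149 on chromosome 3. At the lower limit of the window, AI314278 (13.7 at 30.2 kb) and St8sia2 (12.3 at 30.3 kb) were just inside and B4galt6 (13.7 at 29.8 kb) and Eif1a (13.7 at 29.5 kb) just outside. At the upper limit Kcnj2 and Nr2f2 were just inside, and Gm13483 (9.58 at 151 kb) and Angpt1 (16.4 at 152 kb) just outside.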

How the data were processed

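ISL1 ChIP-seq peaks of 1 library were used. Per the labels' protocols, cells were crosslinked with disuccinimidyl glutarate (2 mM, 30 min), which fixes proteins to each other, then with formaldehyde (1%, 10 min), and ISL1 was precipitated with 5 µg of the antibody 39.4D5. Bowtie, HOMER and mm9 are named, per the submitters' processing notes. HOMER annotated the peaks on mm9, per the file headers, which name a comparison with input. Not given in the sources used here were caller settings, tool versions and the handling of duplicate reads. The deposited peak score is the authors' own number, with no scaling given. The deposited focus ratio is a fraction. Sequencing depth is unknown, since read totals were not analysed here, and counting intervals of scores assume 1 tag per score step.

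Shares have exact Clopper-Pearson intervals and medians exact order-statistic intervals (Python 3.11.15, SciPy 1.17.1), tested on simulated data first. All 317 nearest genes were matched to the RefSeq table by Entrez identifier. Its build is not mm9, so it gave names and gene order only. No mm9 genome was used, so no peak sequence is shown and no motif was searched.

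The members, gene lists and naming rule were chosen with earlier results of these data known. The rule named the nearest genes of the 12 highest peaks, genes with 3 peaks, 10 genes with 2, list members (at most 8 a list), family members (at most 6 a family), microRNA genes, genes at the window's limits, genes of groups within 50 kb, and genes with peaks on both sides. Alx1, beyond that limit, and genes named only as next in order, on repeats or in close pairs were named after their values were seen. Alternatives changed the window, the score minimum, repeats, merging, neighbour limit and gene type. Chaining over 250 kb, the upstream share over all peaks at 30 to 150 kb and the upstream share of each distance class under other settings were added after seeing the data.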

Additional observations from a re-analysis of the deposited data

How the results depend on the processing

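Of 28 alternatives tried on the main results, 21 stayed within the counting interval or within 1.5 times the count, and 7 moved. The median score remained 15.1 under all 5 of its alternatives. Requiring a score at or above the median of the list left 176 peaks, 16 genes with 2 or more of them and 8.52% with another such peak within 10 kb. A window of 30 to 100 kb gave 66.5% upstream and 25 genes with 2 or more peaks. A limit of 50 kb in place of 10 kb gave 27.1% with a neighbour, and the 75th percentile in place of the 90th gave 30.3%, both by construction. The number of list genes nearest to a peak was 28, 22 at or above the median score and 25 without repeats. Requiring the median score moved the counts for the pacemaker list (3 to 1), the LIM and ligand lists (2 to 1 each), and working myocardium and endothelium (1 to 0 each). Leaving out repeats moved the autonomic list (2 to 1). No paired analysis was possible because there was 1 ISL1 library and no test between samples. The scaling of the score is not given, so what depth limits is known only if 1 step is 1 tag. In that case the median peak has 11 tags, and single peaks of such scores cannot be ranked.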
